A study of Mus musculus with 18 samples.

Results

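The transcription factors *Egr1*, *Egr2* and *Egr3* and 7 further genes of the immediate early and serum response kind, *Ier2*, *Ier3*, *Ier5*, *Klf6*, *Atf3*, *Btg2* and *Srf*, were followed in nascent RNA of mouse embryonic stem (mES) cells. The 10 genes are 10 of the 54446 genes counted, found by matching Ensembl identifiers to gene names in GENCODE M21. They were chosen by the measured difference between *Tet2*-knockout (KO) and wild-type (WT) cells, in which most had lower values in *Tet2*-KO libraries, so that difference is given as a description, with no p-value, and nothing is read from it. The change with labelling time within each genotype was not itself used for the choice, and it was tested. It is made of the same libraries as the genotype difference, so it is not fully independent of the choice. WT and *Tet2*-/- mES cells, 1 line each, were grown for 42 h in serum and LIF with the GSK3 inhibitor CHIR99021 (3 μM) and the MEK inhibitor PD0325901 (1 μM). They were then given 1 mM 5-ethynyl uridine (EU), a uridine analogue that marks new transcripts, for 10, 20 or 40 min, and the marked RNA was captured and sequenced from 3 dishes for each of the 6 groups. Because there is 1 line for each genotype, genotype and line cannot be told apart, and the replicates measure the spread between dishes.

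Immediate early genes are switched on within minutes by growth factors, serum or stress, with no need for new protein. Signalling through MEK and ERK phosphorylates the ternary complex factors (ELK1, ELK3 and ELK4), which sit with serum response factor (SRF) on CArG boxes near the start of the *Egr* and *Fos* genes, while actin signalling works through the MRTF cofactors of SRF. Other members answer to cyclic AMP or to stress through ATF and CREB proteins or to p53. In pluripotent cells, FGF4 is the usual source of ERK activity, and a MEK inhibitor is added to the medium to hold it down.

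RefSeq promoter windows (250 bases before to 50 after a transcript start, GRCm38.p6) were at hand for 7 of the 10 genes. Windows of *Egr1*, *Egr3* and *Ier2* were not at hand, so these genes were not searched for any motif. The stretches below are shown because they carry the elements through which these genes are usually described, in capitals. A CArG box was found in the windows of *Srf* and *Egr2*, and in 1.81% of all 27025 genes with a window.
Srf, chr17:46556206-46556253, minus strand: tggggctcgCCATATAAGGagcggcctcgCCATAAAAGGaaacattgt
Egr2, chr10:67537485-67537512, plus strand: ggatcttctCCTTTTTTGGaaagtctcg
Egr2, chr10:67537788-67537815, plus strand: ttcctcagtCCATATATGGgcagcgacg
Btg2, chr1:134079305-134079330, minus strand: tcccaataaTGACGTCAgtgagcgat
Atf3, chr1:191183334-191183352, minus strand: ttaatagcaTTACGTCAgc
The pair of CArG boxes of *Srf* lies outside the gene, 52 and 82 bases before the RefSeq start on which the window is set, which differs from the GENCODE gene end given below, when counted from the near end of the last box and the far end of the other. Each *Egr2* box lies 62 bases before a different RefSeq transcript start and in no annotated exon, although the annotated gene begins upstream of both. The CREB/ATF letters TGACGTCA stood in the *Btg2* window and in 2.03% of genes, and the related TTACGTCA in the *Atf3* window and in 0.581%. The EGR motif letters GCGNGGGCG were present for *Btg2* and *Srf* and for 6.27% of genes. Both strands were searched, and the capital letters of different motifs did not overlap in these stretches. A match describes the letters only.

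Libraries held between 17931614 and 23069143 reads on genes and between 44162 and 512186 on the ERCC spike-in RNAs, which were added in proportion to total RNA. Levels are given in 2 ways: as reads per 1000 ERCC reads, which follow the amount of labelled RNA against the spike-in on which the study calibrates, and as counts per 1000000 gene reads (CPM), a share of all labelled RNA. They differ because most genes were higher per ERCC read in *Tet2*-KO libraries, with a median log2 difference of 0.70 over the 19910 genes tested, against -0.04 as a share. Reads on *Tet2* were not lost (13117 to 17092 in WT, 9730 to 13011 in libraries labelled *Tet2*-KO), but a gene total cannot show whether an exon was deleted. The Y-linked *Ddx3y* had 217 to 288 reads in WT libraries and at most 11 in *Tet2*-KO libraries, a difference between the lines outside *Tet2*. Of the defining pluripotency markers, *Sox2*, which lies inside *Sox2ot*, was listed at 0 in all 18 libraries, and the other 8 had reads.

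*Egr1*, a zinc finger activator and the usual readout of ERK signalling, lies on chr18:34859823-34864984 (plus strand; gene positions are those of GENCODE M21 on mm10) and differed most. Its share in the 3 WT libraries was 64.5, 63.0 and 55.9 CPM at 10 min, 16.2, 17.9 and 17.0 at 20 min, and 6.98, 7.10 and 8.50 at 40 min. In the *Tet2*-KO libraries it was 1.56, 2.33 and 1.47 at 10 min, 2.44, 1.76 and 3.19 at 20 min, and 1.16, 1.09 and 0.892 at 40 min. All 9 *Tet2*-KO libraries lay below all 9 WT libraries, and the gap was widest at 10 min. In bulk RNA, fewer cells of a type and less RNA per cell cannot be told apart. The log2 difference of the shares was -5.11 (SE 0.14) at 10 min, -2.78 (SE 0.15) at 20 min and -2.83 (SE 0.19) at 40 min, which is 34.5-fold, 6.89-fold and 7.12-fold lower. Per ERCC read it was -4.08 (SE 0.18), -2.30 (SE 0.18) and -2.16 (SE 0.22). The mean over the times was -2.85 (SE 0.11) per ERCC read and -3.57 (SE 0.09) as a share, and without the 10 min libraries, a fit chosen after seeing the data, -2.23 and -2.81.

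*Egr2*, on chr10:67535475-67542188, had far fewer reads, 171 over the 9 WT libraries and 36 over the 9 *Tet2*-KO libraries. The WT counts were 21, 22 and 20 at 10 min, 20, 18 and 29 at 20 min, and 22, 10 and 9 at 40 min, and the *Tet2*-KO counts were 3, 1 and 7, then 3, 7 and 6, then 2, 4 and 3. With at most 7 reads, no *Tet2*-KO library reached the filter's minimum count of 10, so *Egr2* entered the fits through WT libraries only. At each time every *Tet2*-KO library was below every WT library, both as a share and per ERCC read. The mean log2 difference was -2.09 (SE 0.31) as a share and -1.36 (SE 0.35) per ERCC read, and the pooled share in *Tet2*-KO libraries was 0.230 of that in WT (exact interval at 95% confidence, 0.156 to 0.331, counting error only).

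*Egr3*, on chr14:70077203-70082614, was at the edge of detection with 67 reads in 18 libraries and did not pass the filter for the fits. WT libraries had 5, 1 and 3 reads at 10 min, 12, 9 and 10 at 20 min, and 5, 1 and 8 at 40 min. *Tet2*-KO libraries had 1, 1 and 2, then 4, 2 and 1, then 1, 0 and 1. The groups were apart only at 20 min. Pooled over the times, the *Tet2*-KO share was 0.263 of WT (exact interval 0.132 to 0.489), and at 10 min alone, with 9 and 4 reads, the interval ran from 0.112 to 1.78.

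*Klf6*, a Krüppel-like zinc finger factor of serum-stimulated cells on chr13:5861482-5870394, was the steadiest of the lower genes. Its share ran from 19.7 to 25.0 CPM in the WT libraries (median 23.6) and from 9.41 to 11.8 (median 9.84) in the *Tet2*-KO libraries. No library of either genotype came near the other genotype, and the log2 difference was -1.22 (SE 0.10), -1.12 (SE 0.10) and -1.06 (SE 0.10) at the 3 times. Per ERCC read the mean difference was -0.40 (SE 0.08), and the genotypes were apart at 20 min only.

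**Figure D1:**
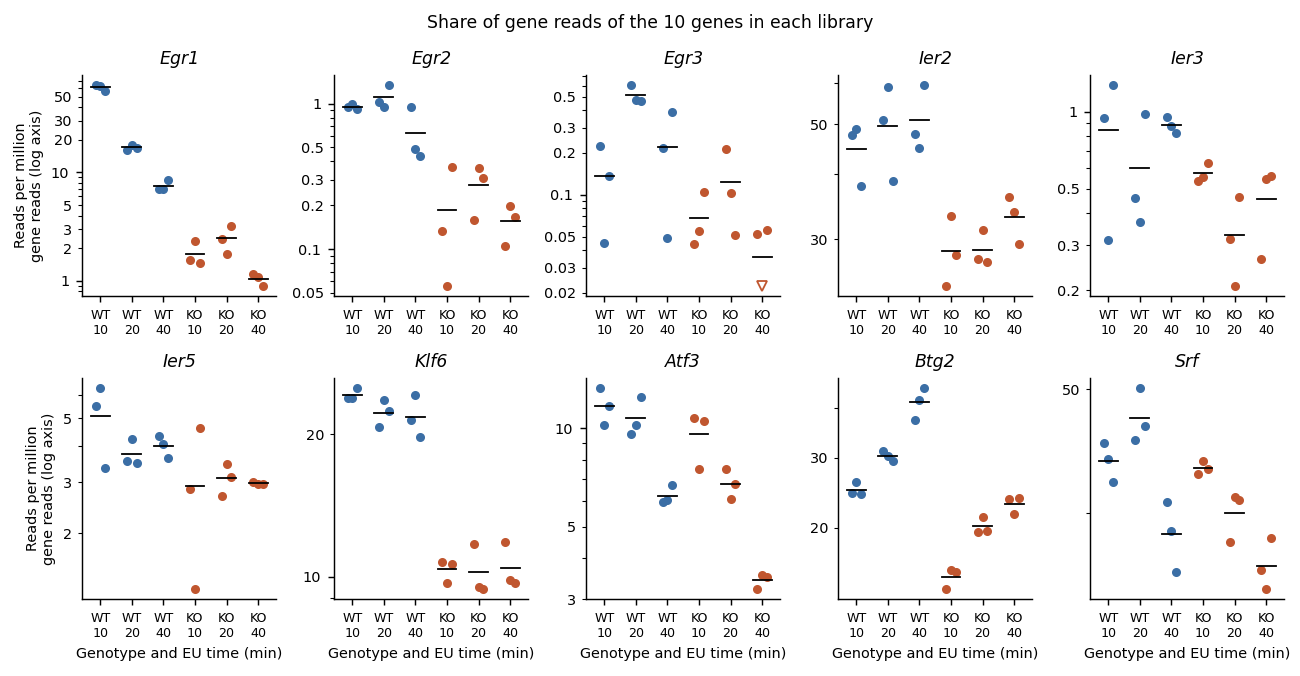
Share of gene reads (CPM) of the 10 genes in each of the 18 libraries, on log axes that differ between panels. Blue points are WT and orange points *Tet2*-KO libraries by EU time, the black bar is the mean of 3 libraries, and the open triangle marks the library with no *Egr3* read. *Egr1* in WT falls from a mean of 61.1 to 7.53 between 10 and 40 min, *Klf6* is flat within each genotype, and *Btg2* climbs in both.

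*Ier2*, a short-lived nuclear protein whose gene is a single exonic block on chr8:84661331-84662852, had 38.0 to 59.6 CPM in WT (median 47.9) and 24.4 to 36.2 in *Tet2*-KO libraries (median 29.4). Its share was lower at every time without overlap, with a mean log2 difference of -0.69 (SE 0.07). Per ERCC read the difference was 0.36 (SE 0.11) at 10 min, -0.31 (SE 0.11) at 20 min and 0.08 (SE 0.11) at 40 min, and the genotypes overlapped at all 3. *Ier5*, the other gene of a single block (chr1:155096361-155099636), had 3.38 to 6.38 CPM in WT and 1.28 to 4.62 in *Tet2*-KO libraries, and both extremes of the latter came from 10 min. Its mean log2 difference was -0.50 (SE 0.15) as a share and 0.23 (SE 0.13) per ERCC read. *Ier3*, a survival factor of stressed cells on chr17:35821684-35822923, had 150 reads in WT and 79 in *Tet2*-KO libraries in all. Its pooled share in the latter was 0.576 of WT (exact interval 0.433 to 0.761), the fitted difference was -0.79 (SE 0.29), and WT libraries at 10 min ranged from 0.314 to 1.28 CPM.

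*Atf3*, a stress-induced bZIP factor on chr1:191170296-191218039, was the only member whose gene exceeds 10 kb. Per ERCC read it was higher in *Tet2*-KO libraries at 10 min (1.03, 0.672 and 1.06 against 0.618, 0.518 and 0.4998 in WT) and lower at 40 min (1.38, 1.30 and 1.39 against 1.44, 1.56 and 1.60). The groups did not overlap at either time, the log2 differences were 0.76 (SE 0.16) and -0.18 (SE 0.18), and the mean over the times was 0.13 (SE 0.10). As a share, its mean difference was -0.60 (SE 0.09).

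*Btg2*, an antiproliferative cofactor of mRNA deadenylation and a p53 target, lies on chr1:134075170-134079120. Its share was 24.4, 26.1 and 24.4 CPM in WT at 10 min and 37.4, 42.0 and 45.0 at 40 min, against 14.0, 15.7 and 15.5 and then 23.6, 21.7 and 23.8 in *Tet2*-KO libraries. All 9 *Tet2*-KO libraries were below all 9 WT libraries, with a mean log2 difference of -0.72 (SE 0.05). Per ERCC read the mean was 0.01 (SE 0.07), with *Tet2*-KO libraries higher without overlap at 10 min (0.30, SE 0.12) and overlapping later.

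*Srf*, which encodes the factor that binds CArG boxes, differed least as a share. It had 45.3, 44.1 and 42.3 CPM in WT at 10 min and 42.9, 44.0 and 43.3 in *Tet2*-KO libraries, and the difference was -0.02 (SE 0.06) there and -0.12 (SE 0.04) on average. Per ERCC read it was 0.62 (SE 0.06), close to the median of all genes. The *Srf* gene (chr17:46548329-46556175, minus strand) overlaps the lincRNA *Gm26904* on the other strand, which had up to 1310 reads in a library. The kit keeps strand, but how HTSeq was set for it is not given in the sources used here, so the split of reads between the 2 is uncertain.

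The counts over the group only describe the choice of the genes, which this contrast made. With calls by edgeR's quasi-likelihood test at a Benjamini-Hochberg adjusted p under 0.05, 3 of the 9 tested members were called lower per ERCC read (*Egr1*, *Egr2* and *Klf6*), where 4.15% of all genes and 5.0% of tested genes spanning at most 10 kb were, and 1 (*Srf*) was called higher, where 80.5% and 73.0% were. As a share, all 9 were called lower, against 32.0% of all genes and 26.5% of those spanning at most 10 kb. The median log2 difference of the 9 was 0.01 per ERCC read and -0.72 as a share. No overlap at any of the 3 times, with *Tet2*-KO libraries lower, was found for 2 members per ERCC read (1.56% of all genes) and for 5 as a share (13.9%). *Egr2* is in each of these counts of lower members, and it entered the fits through its WT libraries only. The direction as a share was the same in all 9, whereas per ERCC read 5 were above 0 and 4 below.

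**Figure D2:**
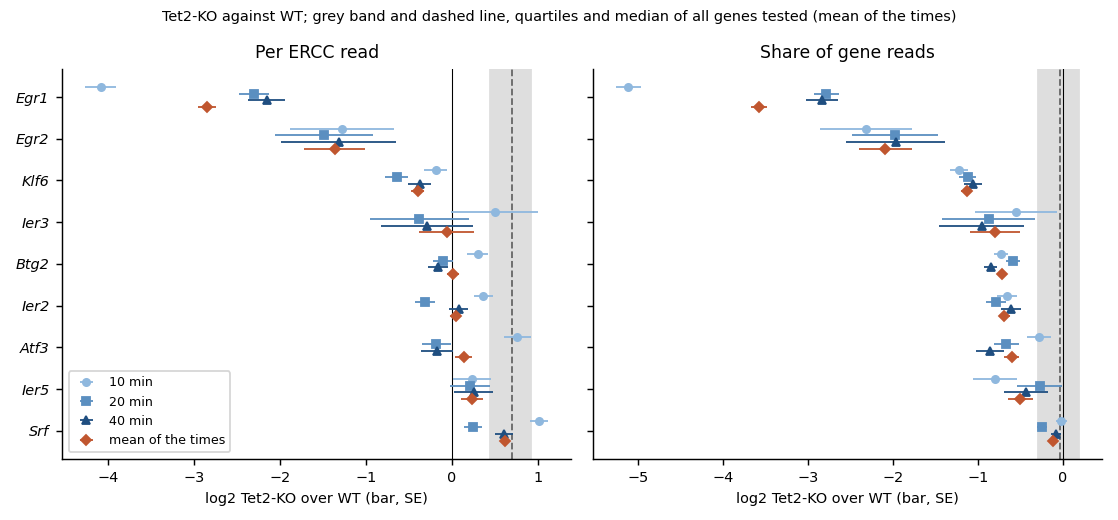
Log2 difference of *Tet2*-KO from WT libraries for the 9 tested genes at each EU time and as the mean of the times, with standard errors, per ERCC read and as a share of gene reads. The grey band and dashed line are the quartiles and median over 19910 genes. *Egr1* and *Egr2* lie far to the left on both scales, and the mean of *Srf* lies within the band on both.

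These genes are also short, a property that the choice did not use. Of the 10, 9 span at most 10 kb, as do 21.3% of the 15158 tested protein-coding genes, and their median span is 5287 bases against 26740. *Ier2* and *Ier5* have a single exonic block, which holds for 2.36% of tested coding genes. Per kb of exon, the order of median shares in WT ran from *Ier2* (31.4 CPM per kb) through *Srf* (15.2), *Btg2* (11.0), *Klf6* (5.37), *Atf3* (4.73), *Egr1* (3.78), *Ier5* (1.24), *Ier3* (0.779) and *Egr2* (0.280) to *Egr3* (0.0509). These medians pool the 3 EU times, over which *Egr1* ran from 1.56 to 14.4 CPM per kb in WT, so its place holds for the pooled median only. Only *Ier2* from *Srf*, and *Btg2* from *Klf6*, were neighbours whose ranges did not overlap. In *Tet2*-KO libraries *Egr1* fell to the eighth place at 0.347, between *Ier3* (0.472) and *Egr2* (0.0492), and its range stood apart from that of *Egr2* but not from that of *Ier3*. Whether reads in introns were counted is not known, so the order depends on the length used. Per kb of gene span in WT, *Btg2* (7.66) stood above *Srf* (5.62), *Egr1* (3.28) above *Klf6* (2.64), and *Atf3* (0.214) below *Ier3* (0.710). In *Tet2*-KO libraries *Egr1* (0.302) then stood above *Atf3* (0.141).

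The change with EU time asks whether a gene gathers label faster or slower than labelled RNA as a whole. Between 10 and 40 min in WT, 3 of 9 members fell as a share and 1 rose (edgeR's quasi-likelihood test, Benjamini-Hochberg adjusted p under 0.05), where 29.5% of all genes fell and 16.1% rose, and 17.7% and 12.3% of those spanning at most 10 kb. The same 4 members were called in the same directions in *Tet2*-KO libraries, where 20.0% of all genes fell and 16.5% rose, and 11.2% and 9.92% of those spanning at most 10 kb. With 3 and 1 of 9, the members' counts are near these shares, so the results below are about single genes. *Egr1* fell by 3.02 on the log2 scale in WT (SE 0.11, adjusted p = 7.45e-20), 8.13-fold, with no overlap between any of the times. *Egr1* fell by 1.85 from 10 to 20 min (SE 0.10, adjusted p = 1.9e-14), where 11.1% of all genes fell, and by 1.18 from 20 to 40 min (SE 0.12, adjusted p = 3.06e-09), where 18.1% did. In *Tet2*-KO libraries the change over the same span was -0.75 (SE 0.25, adjusted p = 0.0198), and this call was lost without the 10 min replicate 2 (-0.53, adjusted p = 0.149) and without the 40 min replicate 3 (-0.65, adjusted p = 0.0807). The fall came late there: the change was 0.48 (SE 0.21, adjusted p = 0.118) from 10 to 20 min, where 11.2% of all genes rose and 8.27% fell. From 20 to 40 min it was -1.22 (SE 0.24, adjusted p = 0.00033), where 8.95% fell. Without the 10 min replicate 2 or without the 20 min replicate 2, the early change passed the test as a rise (0.70 and 0.67, adjusted p = 0.0356 and 0.0295).

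*Atf3* fell as a share in both genotypes, by 0.91 in WT (SE 0.14, adjusted p = 3.08e-06) and by 1.49 in *Tet2*-KO libraries (SE 0.16, adjusted p = 4.1e-09), and in WT the fall came after 20 min (-0.12, adjusted p = 0.59, from 10 to 20 min, then -0.79, adjusted p = 7.81e-05). *Btg2* rose by 0.73 in WT (SE 0.07, adjusted p = 6.81e-10) and by 0.61 in *Tet2*-KO libraries (SE 0.08, adjusted p = 3.63e-07), and its WT libraries at 40 min all exceeded those at 20 min, which all exceeded those at 10 min. *Srf* fell slightly, by 0.19 in WT (SE 0.06, adjusted p = 0.0102) and by 0.26 in *Tet2*-KO libraries (SE 0.06, adjusted p = 0.00125). In WT that call was lost without the 40 min replicate 3 (-0.14, adjusted p = 0.0854), with TMM factors (-0.088, adjusted p = 0.25) and with DESeq2 (-0.091, adjusted p = 0.254). The other 5 tested members did not pass the test in either genotype. *Klf6* had the narrowest interval among them, with a change of -0.15 in WT (interval at 95% confidence, -0.34 to 0.03) and 0.01 in *Tet2*-KO libraries (-0.21 to 0.23), while that of *Egr2* in WT ran from -1.46 to 0.30.

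**Figure D3:**
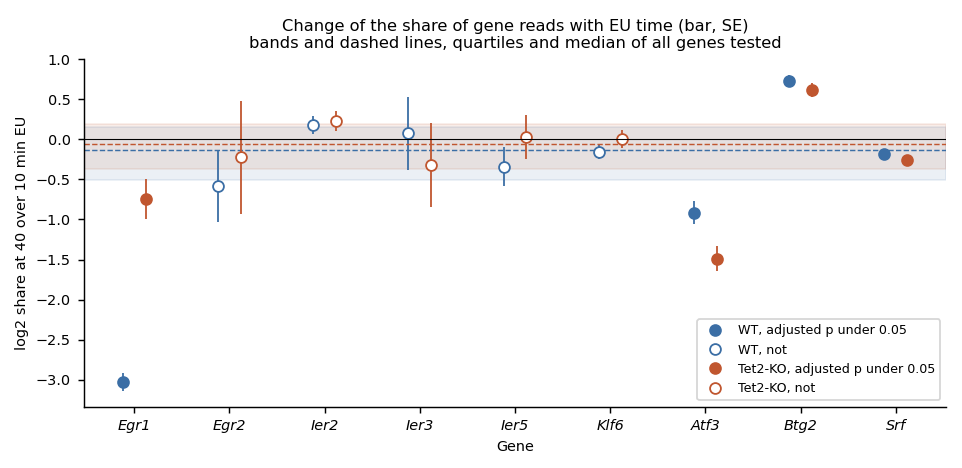
Log2 change of the share of gene reads from 10 to 40 min of EU in WT (blue) and *Tet2*-KO (orange) libraries for the 9 tested genes, with standard errors. Filled points passed an adjusted p of 0.05, and bands and dashed lines are the quartiles and medians of all 19910 genes. *Egr1* in WT lies at -3.02, below every other value shown.

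Per ERCC read, labelled RNA accumulates, and 96.7% of all genes rose between 10 and 40 min in WT, with a median of 2.26 on the log2 scale. Of the 9 members, 8 rose, from 1.49 for *Atf3* (SE 0.17, adjusted p = 8.56e-18) to 3.13 for *Btg2* (SE 0.12, adjusted p = 1.29e-92). *Egr1* fell by 0.63 (SE 0.15, adjusted p = 2.45e-05), from 3.00, 3.20 and 2.39 reads per 1000 ERCC reads at 10 min to 1.70, 1.84 and 2.03 at 40 min. It was 1 of only 2 genes called lower among 19910 (0.01%), and the other, *4930557J02Rik*, had 282 reads in all 18 libraries and an adjusted p of 0.0445. Leaving out any of the 18 libraries kept *Egr1* called lower. In *Tet2*-KO libraries all 9 members rose, as did 94.7% of all genes. There *Egr1* rose by 1.30 (SE 0.27, adjusted p = 3.21e-06), from 0.149, 0.209 and 0.148 to 0.498, 0.398 and 0.354, while its highest value (0.673) came at 20 min. *Atf3* had the smallest rise, 0.56 (SE 0.18, adjusted p = 0.00271), and this call was lost without the 10 min replicate 2 (0.37, adjusted p = 0.0571). The rise of *Egr2* (1.76, SE 0.81, adjusted p = 0.0319) was lost without any 1 of 4 *Tet2*-KO libraries, with adjusted p between 0.0744 and 0.114.

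Fitted as lines over the 9 libraries of a genotype, the slope of *Egr1* in WT was below 0, at -0.0335 reads per 1000 ERCC reads per min (SE 0.00748), and in *Tet2*-KO libraries 0.00645 (SE 0.00433). A line is a poor summary of such a gene, since forcing it through the origin turned the WT slope to 0.0729. For the members that rose steadily, slopes can be set side by side: *Btg2* 0.301 (SE 0.0156) in WT and 0.257 (SE 0.0173) in *Tet2*-KO libraries, *Ier2* 0.334 (SE 0.0433) and 0.352 (SE 0.0321), *Klf6* 0.137 (SE 0.0161) and 0.106 (SE 0.0115), and *Srf* 0.231 (SE 0.0381) and 0.339 (SE 0.0266). The slope of *Srf* in *Tet2*-KO libraries was 1.47 times that in WT, and those of *Klf6* and *Btg2* were 0.772 and 0.853 times. *Atf3* had flattened by 20 min, with means of 1.58 and 1.54 reads per 1000 ERCC reads at 20 and 40 min in WT and 1.39 and 1.36 in *Tet2*-KO libraries.

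**Figure D4:**
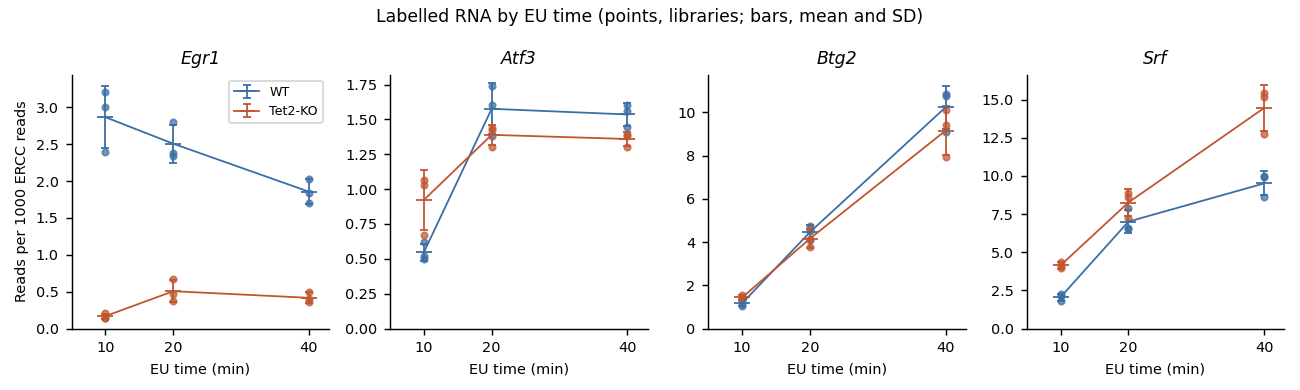
Reads per 1000 ERCC reads by EU time for *Egr1*, *Atf3*, *Btg2* and *Srf*, with 3 libraries a point, their mean and SD, for WT (blue) and *Tet2*-KO (orange). *Btg2* and *Srf* climb throughout, *Atf3* levels off after 20 min, and *Egr1* in WT falls from a mean of 2.87 to 1.86.

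The difference between the genotypes in this change was tested as an interaction on the share of gene reads. It equals the genotype difference at the later time minus that at 10 min, so it is made of values that chose the genes and is not independent of that choice. *Egr1* was the single member of 9 to pass, with a change from 10 to 40 min that was 2.28 higher on the log2 scale in *Tet2*-KO libraries than in WT (SE 0.30, adjusted p = 3.28e-06), where 5.89% of all genes were called higher and 3.36% lower. From 10 to 20 min it was 2.32 higher (SE 0.24, adjusted p = 3.38e-08), where 2.37% were called higher and 2.07% lower. *Atf3* came next at -0.57 (adjusted p = 0.0961), which passed without the *Tet2*-KO 10 min replicate 2 (-0.72, adjusted p = 0.0279) and with DESeq2 (-0.64, adjusted p = 0.0407). The interval of *Btg2* (-0.34 to 0.10) and that of *Srf* (-0.23 to 0.10) bound any difference in their change more closely than that of *Egr2* (-1.35 to 2.05). Per ERCC read, a fit of the interaction that was chosen after seeing the data, the median of all genes from 10 to 40 min was -0.29, against 0.06 as a share. There *Egr1* was again called higher (1.93, SE 0.31, adjusted p = 7.84e-07), as were 0.552% of all genes. *Atf3* (-0.93, SE 0.24, adjusted p = 0.0032), *Btg2* (-0.46, SE 0.16, adjusted p = 0.0329) and *Srf* (-0.41, SE 0.15, adjusted p = 0.0369) were called lower, as were 19.3% of all genes.

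Markers of fibroblasts, the usual feeder cells, were highest in WT at 10 min, as *Egr1* was. The authors passaged the mES cells on gelatin before experiments to remove feeders. Of 10 markers, 6 had enough reads to be tested, and the defining marker *Lum* had no read in 5 of the 6 groups. Their summed share was 22.9 to 23.7 CPM in WT at 10 min, 8.48 to 9.31 at 20 min and 7.09 to 8.66 at 40 min, and 7.49 to 10.2, 12.9 to 14.3 and 6.97 to 8.48 in *Tet2*-KO libraries. In WT the sums at 20 and 40 min overlapped, whereas the shares of *Egr1* did not. Between 10 and 40 min in WT, 5 of the 6 tested fell as a share, where 29.5% of all genes did. *Col1a1*, the main fibrillar collagen, changed by -1.48 (edgeR's quasi-likelihood test, adjusted p = 4.4e-08). *Acta2*, smooth muscle actin and a target of SRF with MRTF, was singled out after its values were seen: it had 13.3, 14.3 and 13.0 CPM in WT at 10 min and at most 3.49 at later times, and it was high again in *Tet2*-KO libraries at 20 min (8.63, 8.39 and 8.27). The part of other cells in the *Egr1* values was not tested. The 9 pluripotency markers summed to 2878 to 3058 CPM in WT and 2100 to 2215 in *Tet2*-KO libraries. As a share, 6 of the 8 tested were called lower in *Tet2*-KO libraries and 2 higher, where 32.0% and 24.6% of all genes were. Per ERCC read, 6 were called higher and 1 lower, where 80.5% and 4.15% were, with a median of 0.54 against 0.70. *Zfp42* had 520 to 568 CPM in WT and 103 to 122 in *Tet2*-KO libraries, and *Tfcp2l1* had 889 to 1073 and 657 to 794. The 8 primitive endoderm markers summed to 21.6 to 23.7 CPM in WT at 10 min, 16.7 to 18.9 at 20 min and 15.7 to 17.0 at 40 min. In *Tet2*-KO libraries they summed to 19.2 to 20.1, 17.2 to 18.8 and 15.7 to 17.1. Of the 6 tested, 4 were called lower and 1 higher as a share from 10 to 40 min in WT, where 29.5% and 16.1% of all genes were. Their part in the *Egr1* values was not tested either.

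**Figure D5:**
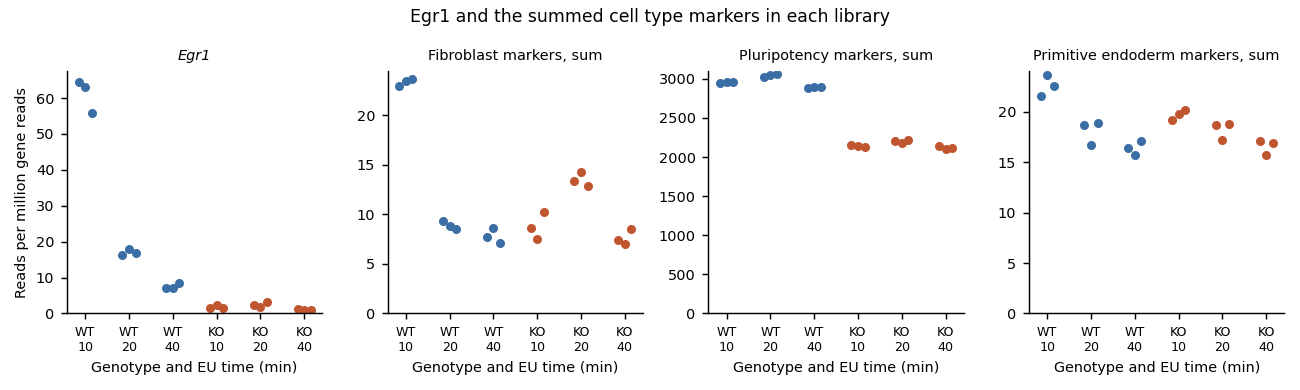
*Egr1* and the summed markers of fibroblasts, pluripotent cells and primitive endoderm in CPM, with 1 point a library by genotype and EU time. WT libraries at 10 min are highest for *Egr1*, for the fibroblast sum and, by less, for the primitive endoderm sum. The fibroblast sum has a further peak of 12.9 to 14.3 in *Tet2*-KO libraries at 20 min, where *Egr1* is at 1.76 to 3.19.

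Over the 18 libraries, the protein-coding genes outside the group whose log2 share was most like that of *Egr1*, among 10876 searched, were *Zfp521* (Pearson r = 0.98), *Zhx2* (0.98), *Iqch* (0.97), *Vwa8* (0.97) and *Tiam2* (0.97). Their mean shares also stepped down with EU time in WT and were lower in *Tet2*-KO libraries, but the steps differed in size, which r does not measure. *Iqch* went from 22.3 to 12.5 and 6.15 CPM in WT and had 1.62, 1.95 and 1.89 in *Tet2*-KO libraries. *Vwa8* went only from 269 to 245 and 225 in WT and had 198, 188 and 182 in *Tet2*-KO libraries. Among the members, *Klf6* (0.89) and *Egr2* (0.85) followed *Egr1* most closely and *Ier3* least (0.43). These values rest on the differences between the 6 groups, since the deviations of single libraries from their group mean gave -0.14 for *Egr1* with *Klf6* and -0.46 for *Egr1* with *Egr2*. All are descriptions across libraries that share their counts' depth and groups.

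The AP-1 genes, which are induced beside the *Egr* genes, were close to them in direction. All 6 tested of 7 were called lower as a share in *Tet2*-KO libraries (32.0% of all genes were, and 24.6% were called higher), with a median log2 difference of -1.04, and 3 were called lower per ERCC read (4.15% of all genes). *Junb* ranged from 8.79 to 13.5 CPM in WT and from 3.66 to 5.17 in *Tet2*-KO libraries (-1.29, SE 0.07), *Jun* from 17.8 to 27.6 and from 6.18 to 13.0 (-1.21, SE 0.07), and *Fos*, the partner of JUN, from 3.21 to 6.56 and from 1.14 to 2.91 (-1.14, SE 0.13). *Fosl2* differed by -0.93 (SE 0.12). None of these 4 overlapped between genotypes. Unlike *Egr1*, *Junb* rose as a share with EU time in WT (0.51, adjusted p = 0.00039), and *Fos* fell by 0.53 (adjusted p = 0.0283).

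Of 28 further immediate early genes, 26 were tested, of which 13 were called lower and 3 higher as a share (32.0% and 24.6% of all genes), with a median of -0.20 against -0.04 for all genes. *Rhob*, a small GTPase (-1.64, SE 0.11), and *Ccn2*, a matricellular YAP and SRF target (-1.02, SE 0.04), were lower in every *Tet2*-KO library than in any WT library, *Maff* was lower with overlap (-1.02, SE 0.15), and *Errfi1*, a feedback inhibitor of the EGF receptor, was higher in every one (0.82, SE 0.06). Per ERCC read, 19 of the 26 were called higher and 2 lower (80.5% and 4.15% of all genes), with a median of 0.54 against 0.70.

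Of the 5 SRF cofactors, 2 were called lower and 1 higher as a share, where 32.0% and 24.6% of all genes were, and 4 were called higher per ERCC read, where 80.5% were. As a share, *Elk3*, a ternary complex factor that represses when unphosphorylated, differed by -0.69 (SE 0.05), *Mrtfa* by 0.25 (SE 0.02) and *Elk4* by -0.10 (SE 0.03), while *Elk1* (-0.12, SE 0.05) did not pass. *Elk3* also fell by 1.22 between 10 and 40 min in WT (adjusted p = 4.49e-13). Of 12 cytoskeletal SRF targets, 5 were called lower and 1 higher as a share, against the same 32.0% and 24.6%, and 9 were called higher per ERCC read. As a share, *Zyx* differed by -0.71 (SE 0.06), *Tagln* by -0.59 (SE 0.14) and *Vcl* by -0.42 (SE 0.014), while *Cnn1* (-0.45, SE 0.35) did not pass. The NAB corepressors of EGR proteins, *Nab1* and *Nab2*, differed by 0.28 (SE 0.05) and 0.17 (SE 0.09), and *Nab1* was called higher.

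In the FGF and ERK cascade, 19 of 19 genes were tested, and 7 were called higher and 4 lower as a share (24.6% and 32.0% of all genes), with a median of 0.035, and all 19 were called higher per ERCC read (80.5%). *Map2k2*, which encodes the kinase MEK2, differed by -0.56 (SE 0.02), and *Rps6ka3*, which encodes the ERK-activated kinase RSK2, by 0.39 (SE 0.03). Of the feedback inhibitors and targets of ERK, 8 of 11 were called lower and 1 higher as a share (32.0% and 24.6% of all genes), with a median of -0.29. Per ERCC read, 7 were called higher and 3 lower (80.5% and 4.15% of all genes), with a median of 0.44. *Spry4*, a Sprouty inhibitor of receptor signalling, ranged from 27.0 to 64.3 CPM in WT and from 5.83 to 26.1 in *Tet2*-KO libraries (-1.55, SE 0.05). *Spry2* (-1.06, SE 0.04) and the ERK phosphatase gene *Dusp5* (-1.08, SE 0.06) were also lower in every *Tet2*-KO library than in any WT library, and *Dusp4* (-0.78, SE 0.15) was lower with overlap. With EU time in WT, *Spry4* rose as a share by 1.19 on the log2 scale (adjusted p = 4.13e-15), whereas *Egr1* fell.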

How the data were processed

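The authors trimmed reads with Trimmomatic (0.39), aligned them with HISAT2 (2.2.1) to mm10 with the ERCC sequences and counted reads per gene with HTSeq (0.12.4), and the deposited values are raw counts per gene. Tools and versions are from the submitters' processing notes. Feature type, strand setting and overlap mode are not given in the sources used here. Reads counted on no gene (20.9% to 24.9%) were left out.

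Counts were fitted with edgeR (4.0.16, R 4.3.3; glmQLFit, glmQLFTest) in 1 model of 6 groups and 18 libraries, after filterByExpr (minimum count 10), with ERCC reads or all gene reads as library size. P-values were adjusted by Benjamini-Hochberg over 19910 genes at 0.05. Standard errors are the log2 change divided by the square root of F. On simulated counts of these genes, 200 of 200 genes changed 2-fold between genotypes were recovered per ERCC read, and 199 of 200 changed 2-fold from 10 to 40 min in WT as a share. Of the unchanged genes, 6 and 10 were called. The changed genes were drawn from those with many reads, at a fixed spread, so recovery of low genes such as *Egr2* and *Ier3* was not simulated. Alternatives were TMM, DESeq2 (1.42.0), no filter, the replicate number as a block, each library left out and, added after seeing the data, no 10 min libraries and the interaction per ERCC read.

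The members and lists were chosen with earlier results of these data known. All members are named, and from each other list up to 4 tested genes with the largest mean genotype difference as a share (some of them are not reported here), plus the 5 protein-coding genes most correlated with *Egr1* on log2(CPM + 0.5) over the 18 libraries (mean log2 over 2). No pair of replicates agreed within sampling noise. Intervals of log2 changes come from the fit's standard errors. Exact intervals of pooled reads cover counting error only, since reads copied by PCR and not tagged by molecule can repeat the same one.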

Additional observations from a re-analysis of the deposited data

Results flagged for a closer look

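The change of *Egr1* with EU time differed between the genotypes by the interaction test: as a share of gene reads it was 2.28 higher on the log2 scale in *Tet2*-KO libraries from 10 to 40 min and 2.32 higher from 10 to 20 min (edgeR's quasi-likelihood test, adjusted p = 3.28e-06 and 3.38e-08). This difference is made of the genotype differences that chose *Egr1* and is not independent of the choice. In each WT library at 10 min *Egr1* was above each later WT library, whereas *Tet2*-KO libraries at 10 and 20 min overlapped. The summed fibroblast markers (22.9 to 23.7 CPM) and the summed primitive endoderm markers (21.6 to 23.7 CPM) were also highest in WT at 10 min, and their part in the difference was not tested.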

How the results depend on the processing

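Replacing ERCC reads by TMM factors on the genes removes what all genes of a library share, so by construction the values per ERCC read then approach the shares. The members called higher on average in *Tet2*-KO libraries went from 1 to 0 and those called lower from 3 to 8. Those called higher with EU time went from 8 to 2 in WT and from 9 to 1 in *Tet2*-KO libraries. Those called lower went from 1 to 2 in WT and from 0 to 3 in *Tet2*-KO libraries. The genotype difference changed sign at 10 min for *Ier2* (-0.59), *Atf3* (-0.21) and *Btg2* (-0.66), and for *Srf* at 20 min (-0.21), 40 min (-0.071) and on average (-0.076). The change from 10 to 40 min turned in WT for *Egr2* (-0.48), *Ier5* (-0.24), *Klf6* (-0.053), *Atf3* (-0.81) and *Srf* (-0.088), and in *Tet2*-KO libraries for *Egr1* (-0.70), *Egr2* (-0.18), *Ier3* (-0.28), *Atf3* (-1.44) and *Srf* (-0.21).

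On the share, the count of members called higher with EU time was 2 in place of 1 in WT with TMM and without the filter, and 2 in *Tet2*-KO libraries without the filter, where *Ier2* joined. The interaction from 10 to 40 min gained 1 member called lower with DESeq2 (*Atf3*), and that of *Ier2* turned to -0.012 with TMM and -0.028 with DESeq2. With ERCC reads as library size, added after seeing the data, 3 members were called lower in the interaction, and it turned for *Egr2* (-0.037), *Ier2* (-0.29) and *Klf6* (-0.19), and for *Btg2* from 10 to 20 min (-0.40). The cause of these changes was not tested. The slope of *Egr1* in WT turned to 0.0729 through the origin, and over 20 and 40 min alone slopes turned for *Egr1* in *Tet2*-KO libraries (-0.00447), *Egr2* in WT (-0.000377), *Egr3* in WT (-0.00116) and *Tet2*-KO (-0.000483), and *Atf3* in WT (-0.00203) and *Tet2*-KO (-0.00149).

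Leaving out 1 library at a time, the members called higher per ERCC read in *Tet2*-KO libraries ranged from 1 to 2. Those called lower there as a share ranged from 8 to 9. Members that rose from 10 to 40 min per ERCC read in *Tet2*-KO libraries ranged from 7 to 9. As a share, members that fell over that span ranged from 2 to 3 in each genotype, and those that rose in *Tet2*-KO libraries from 1 to 2. In the interaction, 0 to 1 member was called lower. Ranges that crossed 0 included those of the change from 10 to 40 min as a share for *Ier3* in WT (-0.32 to 0.49) and, in *Tet2*-KO libraries, *Egr2* (-0.61 to 0.65), *Ier5* (-0.31 to 0.50) and *Klf6* (-0.088 to 0.057), and of the interaction for *Egr2* (-0.033 to 1.23) and *Ier2* (-0.061 to 0.17), and of small genotype differences such as the mean of *Ier2* per ERCC read (-0.019 to 0.11).

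Replicate numbers did not pair the libraries: deviations of same-numbered libraries had a median correlation of 0.000573 (-0.22 to 0.19, 45 pairs). With the replicate block, no call changed, and 1 member was called higher and 3 lower per ERCC read on average in *Tet2*-KO libraries. *Egr2*, *Egr3* and *Ier3* had few reads, so depth limits what their values show, and 1 line for each genotype limits all.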
